A study of Mus musculus with 22 samples.

Results

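The genes described here are 34 cell cycle genes that dividing cells transcribe and resting cells mostly do not. They were listed by symbol from what they are known to do, with earlier results of these data known, and each symbol matched 1 of the 55487 Ensembl genes counted in every library. The study sequenced RNA from mouse dorsal root ganglia (DRG), the clusters of sensory neurons beside the spinal cord, and from DRG cells grown in culture, 22 libraries in all. Ganglia from thoracic and lumbar levels came from Postn knock out (KO) mice given imiquimod (IMQ, a TLR7 agonist that inflames skin) for 5 days (2 libraries), KO mice given vehicle (3), wild-type (WT) mice given IMQ (2) and WT mice given vehicle (3). Cultures labelled DRG neurons were kept for 72 h as KO cultures with recombinant periostin (rPOSTN, 3), KO controls (3), WT cultures with rPOSTN (3) and WT controls (3). The labels give neither the Postn allele nor the strain, age or sex of the mice, and do not say whether a library holds 1 animal or several. They also do not say that replicates are separate animals or cultures, so p-values measure the spread between libraries, which may be technical.

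A dividing cell copies its DNA in S phase and separates the copies in mitosis. Entry into S phase is set by cyclin E with its kinase, after which the MCM helicase opens the DNA and PCNA holds the polymerase on it. Cyclins A and B with the kinase CDK1 then drive mitosis, the Aurora and Polo kinases and the kinetochore proteins align the chromosomes, and the anaphase-promoting complex with its activator CDC20 starts their separation. Sensory neurons of the adult ganglion are postmitotic, whereas satellite glia, Schwann cells, fibroblasts, endothelial cells and macrophages can divide, and many glia and fibroblasts re-enter the cycle once a ganglion is dissociated and plated. In bulk RNA, more cells in cycle and more cell cycle RNA per cell cannot be told apart.

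The promoters of several of these genes are printed because the genes rose together in culture. The first 4 were picked for the motifs they hold, Rrm2 is the gene with the largest rise, and the last 2 are the genes that were not called. RefSeq promoters (GRCm38.p6) were matched for 29 of the 34 genes, and the 250 bases before each transcription start were searched on both strands. The motifs were CCAAT (bound by the factor NF-Y), TTTGAA and TTTAAA (the letters of CHR elements, through which the DREAM complex silences mitotic genes in resting cells) and TTTGGCGC or TTTCGCGC (E2F-type sites). Capitals mark these letters on either strand, so that ATTGG is CCAAT and TTCAAA is TTTGAA on the other strand, and overlapping matches run together. The sequences, 5′ to 3′ on the strand of the gene, are those of Top2a at chr11:99024190-99024439 (minus strand), Ccnb2 at chr9:70421555-70421804 (minus strand), Cdk1 at chr10:69352913-69353162 (minus strand), Mcm6 at chr1:128359706-128359955 (minus strand), Rrm2 at chr12:24708004-24708253 (plus strand), Bub1b at chr2:118597961-118598210 (plus strand) and Kif23 at chr9:61946800-61947049 (minus strand).
Top2a: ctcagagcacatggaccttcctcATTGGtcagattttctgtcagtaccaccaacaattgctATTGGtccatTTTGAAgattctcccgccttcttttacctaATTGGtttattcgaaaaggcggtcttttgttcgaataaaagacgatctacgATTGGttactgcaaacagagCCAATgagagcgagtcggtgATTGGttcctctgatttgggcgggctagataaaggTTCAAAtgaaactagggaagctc
Ccnb2: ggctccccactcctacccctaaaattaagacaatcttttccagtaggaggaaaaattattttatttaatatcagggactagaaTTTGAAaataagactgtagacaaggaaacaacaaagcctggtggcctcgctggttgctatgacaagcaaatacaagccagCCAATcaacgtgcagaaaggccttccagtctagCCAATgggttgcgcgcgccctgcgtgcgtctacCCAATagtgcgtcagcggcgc
Cdk1: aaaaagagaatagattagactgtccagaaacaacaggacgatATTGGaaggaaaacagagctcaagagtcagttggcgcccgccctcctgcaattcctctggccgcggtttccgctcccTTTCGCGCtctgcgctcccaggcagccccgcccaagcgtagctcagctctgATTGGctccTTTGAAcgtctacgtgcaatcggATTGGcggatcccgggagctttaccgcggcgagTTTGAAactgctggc
Mcm6: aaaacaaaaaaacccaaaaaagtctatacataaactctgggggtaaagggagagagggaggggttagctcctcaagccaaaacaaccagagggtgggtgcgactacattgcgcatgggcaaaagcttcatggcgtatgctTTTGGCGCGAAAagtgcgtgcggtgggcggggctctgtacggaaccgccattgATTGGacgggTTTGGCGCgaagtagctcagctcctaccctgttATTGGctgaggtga
Rrm2: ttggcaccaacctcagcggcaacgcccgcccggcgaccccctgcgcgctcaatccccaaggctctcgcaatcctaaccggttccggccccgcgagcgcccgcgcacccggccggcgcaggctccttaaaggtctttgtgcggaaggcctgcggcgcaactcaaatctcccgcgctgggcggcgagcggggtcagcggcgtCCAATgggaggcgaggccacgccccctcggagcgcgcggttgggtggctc
Bub1b: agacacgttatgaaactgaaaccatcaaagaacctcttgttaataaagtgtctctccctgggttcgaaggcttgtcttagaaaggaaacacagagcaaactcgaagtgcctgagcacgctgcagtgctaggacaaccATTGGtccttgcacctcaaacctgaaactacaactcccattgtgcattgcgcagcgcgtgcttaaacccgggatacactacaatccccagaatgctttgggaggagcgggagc
Kif23: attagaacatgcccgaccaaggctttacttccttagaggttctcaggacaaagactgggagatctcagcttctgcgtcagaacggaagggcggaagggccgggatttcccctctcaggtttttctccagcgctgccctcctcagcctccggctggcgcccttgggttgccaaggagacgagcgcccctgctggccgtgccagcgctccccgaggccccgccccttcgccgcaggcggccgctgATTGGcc

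CCAAT occurred in 26 of the 29 promoters (89.7%), against 37.5% of 27025 genes with a promoter of the same length and 39.8% of the 12311 of them that were tested in WT cultures against ganglia. At least 2 CCAAT were found in 15 of the 29 (51.7%, against 11.5% of all genes and 14.2% of those tested), with 6 each in Top2a and Ube2c, the E2 enzyme of the anaphase-promoting complex. TTTGAA was found in 10 of 29 (34.5%, against 18.3% of all genes and 13.1% of those tested) and TTTAAA in 5 (17.2%, against 13.7% and 10.6%). An E2F-type site was found in 3 (10.3%, against 0.8% and 1.3%), which were Cdk1, Mcm5 and Mcm6. The letters TATAAA were found in 1 promoter (3.4%, against 14.3% of all genes and 8.5% of those tested). Bub1b and Kif23 held 1 CCAAT each and none of the other motifs, and so did Rrm2, Pcna, Cenpe and Spdl1, which rose. Tyms and Nusap1, which also rose, held no match at all. These matches describe letters in a window and show no binding.

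Libraries held 16666489 to 24118303 counts in total. Postn, the deleted gene, was at 3.63 to 7.86 CPM (counts scaled to a common library size) in the 5 KO ganglia and at 21.9 to 52.5 CPM in the 5 WT ganglia. In KO cultures it stood at 67.1 to 426 CPM and in WT cultures at 656 to 961 CPM, so KO cultures kept more Postn reads than any WT ganglion. The 2 highest KO culture values, 426 and 382 CPM, were those of culture 3 with rPOSTN and culture 3 without it, against 67.1 to 104 CPM in the other 4. Reads from exons outside a deleted part are still counted, and the labels do not say which part was deleted. Of the 10 ganglia, 1 library, WT IMQ 2, lacked Xist and had Y-linked counts, and the 6 KO cultures each had both, so sex differs between libraries. Summed markers of neurons (12 genes) were at 6440 to 8406 CPM in the 12 cultures and at 18517 to 21433 CPM in the 10 ganglia. Markers of satellite glia and non-myelinating Schwann cells (12 genes) summed to 2861 to 4001 CPM in cultures and 3783 to 4212 CPM in ganglia, and fibroblast markers (10 genes) to 1155 to 1980 CPM and 2121 to 3073 CPM. Endothelial markers (7 genes) summed to more in cultures, at 206 to 295 CPM, than in ganglia, at 87.1 to 153 CPM. In control cultures against vehicle ganglia, 4 of the 7 endothelial markers were called higher and 1 lower in KO, and 5 higher and 1 lower in WT. Of the 12 satellite glia and non-myelinating Schwann cell markers, 6 were called higher and 6 lower in each genotype. The 10 fibroblast markers were split too, with 3 higher and 4 lower in KO and 3 higher and 6 lower in WT. Of all genes, 32.6% in KO and 36.1% in WT were called higher, and 33% and 36% lower. The part of endothelial cells in the cell cycle values was not tested. The cultures labelled neurons therefore held RNA of glia, fibroblasts and endothelial cells too, while neutrophil, T, B, plasma and erythroid cell lists stayed between 0.724 and 4.41 CPM in them.

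All 34 genes had counts in every library. The lowest single count was 44 in a culture (Plk1) and 1 in a ganglion (Aurkb in KO vehicle 2), and 5 genes had fewer than 10 counts in at least 1 ganglion, so counting error is large for the rarest of them there. The summed level of the 34 genes was 480 to 1082 CPM in the 12 cultures and 142 to 200 CPM in the 10 ganglia, with no overlap. Per kilobase of exon, Pcna was the most abundant in control cultures, with a mean level of 61.8 CPM per kb in KO and 54.4 CPM per kb in WT. Pcna also led in vehicle ganglia, at 21.8 CPM per kb in KO and 21.4 CPM per kb in WT. Mcm6 came next in vehicle ganglia (2.73 CPM per kb in KO and 2.48 in WT). The lowest was Cenpf, a large kinetochore protein, at 0.505 CPM per kb in KO control cultures and 0.605 in WT control cultures, and at 0.0376 CPM per kb in KO vehicle ganglia and 0.0602 in WT vehicle ganglia. Pcna also acts in DNA repair, and 13.9% of its 75-base stretches occur in another annotated gene, so its reads may be shared with a pseudogene copy. The same holds for 18.9% of Ccnb1.

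**Figure D1:**
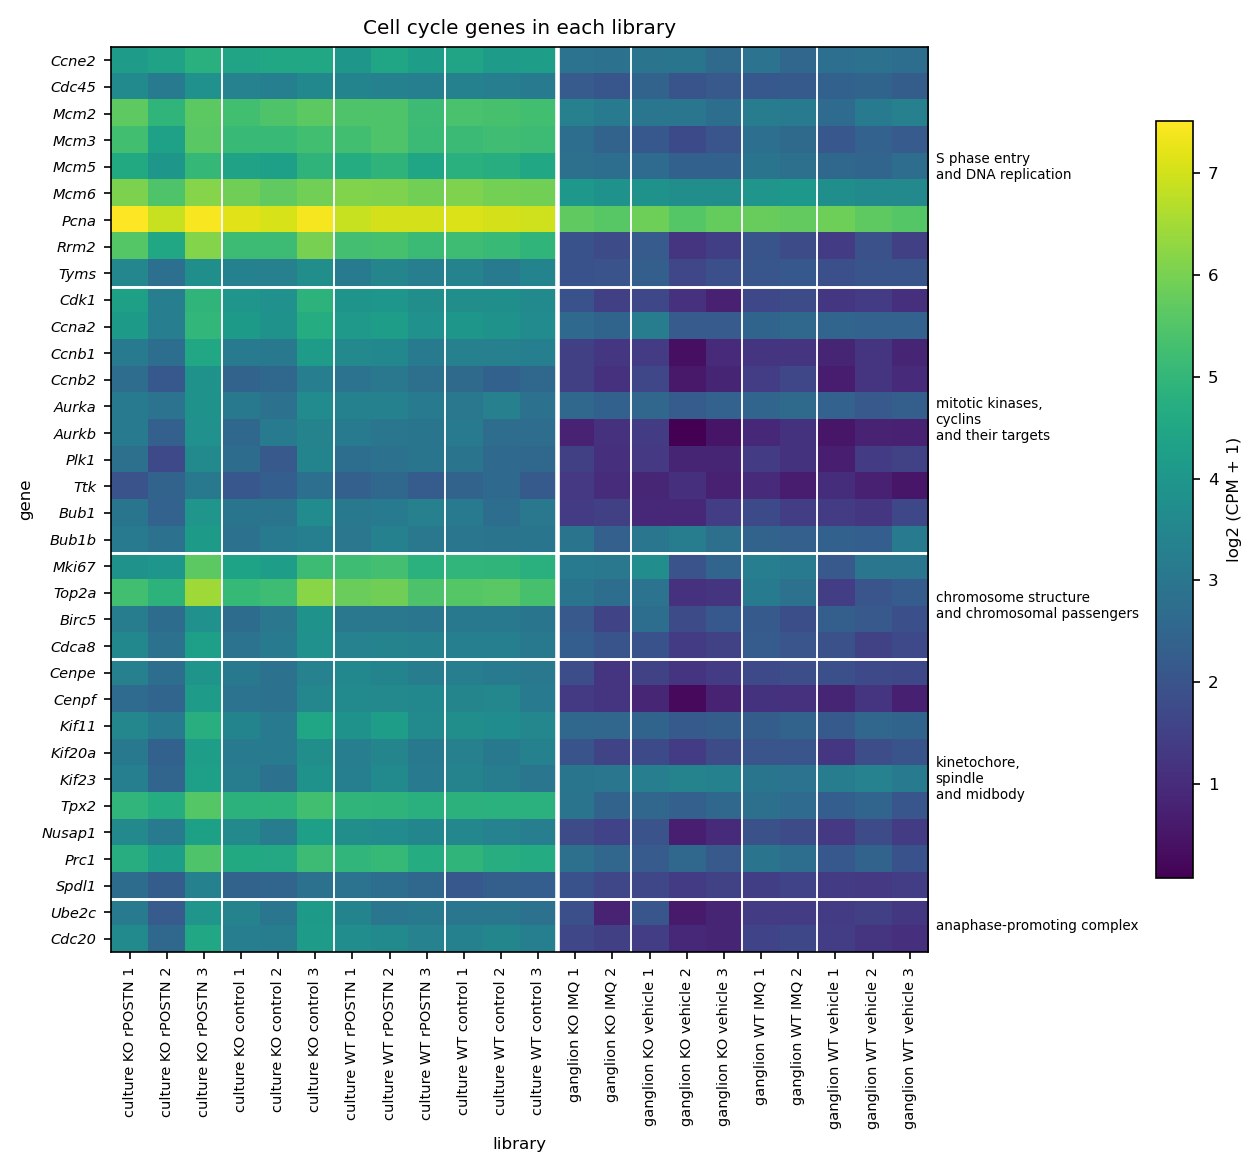
Level of each of the 34 cell cycle genes, log2 (CPM + 1), in the 12 culture libraries (left) and the 10 ganglion libraries (right), with genes ordered by role. Cultures are brighter for 32 of the 34 genes, Bub1b and Kif23 are alike on both sides, and KO culture 3 is the brightest of its group with and without rPOSTN.

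In culture nearly the whole set stood higher than in the ganglion. Of the 34 genes, 32 rose in KO control cultures against KO vehicle ganglia and 32 rose in WT control cultures against WT vehicle ganglia, and none fell in either (edgeR quasi-likelihood test, Benjamini-Hochberg adjusted p below 0.05). Higher calls made up 32.6% of all genes tested in KO and 36.1% in WT, lower calls 33% in KO and 36% in WT, and calls in either direction 65.6% in KO and 72.1% in WT, so most genes differed. The median log2 fold change of the 34 genes was 2.29 in KO and 2.18 in WT, while that of all genes tested was -0.00 in KO and -0.01 in WT. Every control culture was above every vehicle ganglion for 31 of the 34 genes in KO, against 36.7% of all genes, and for 32 in WT, against 38.8%. Every culture was below every ganglion for 0 of the 34 in both, against 34.8% of all genes in KO and 38.1% in WT.

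The 9 genes of S phase entry and DNA replication all rose in both genotypes, with a median log2 fold change of 2.12 in KO and 2.28 in WT. Rrm2, the regulated subunit of the enzyme that makes deoxyribonucleotides, had the largest fold change in both. It stood at 34.8, 35.1 and 62.9 CPM in KO control cultures, against 3.66, 1.31 and 1.73 CPM in KO vehicle ganglia. In WT it stood at 36.1, 33.8 and 29.7 CPM in control cultures, against 1.61, 2.74 and 1.81 CPM in vehicle ganglia. The lowest culture lay far above the highest ganglion in each genotype, and the log2 fold changes were 4.31 ± 0.38 (SE, adjusted p = 5.96e-06) in KO and 4.01 ± 0.18 (adjusted p = 1.76e-07) in WT. Mcm3, a subunit of the replicative helicase, averaged 34.8 ± 2.54 CPM in KO control cultures against 2.91 ± 0.53 CPM in KO vehicle ganglia (SD, n = 3 each). Its WT means were 35.4 ± 1.15 and 3.75 ± 0.55 CPM. The other helicase subunits Mcm2, Mcm5 and Mcm6 had log2 fold changes between 2.12 and 2.70 in KO and between 2.28 and 2.45 in WT. Cdc45, which joins the helicase when replication starts, was among the least changed of the rising genes, at 1.38 ± 0.22 (adjusted p = 3.16e-04) in KO and 1.03 ± 0.15 (adjusted p = 1.89e-04) in WT.

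Of the 10 mitotic kinases, cyclins and their targets, 9 rose in each genotype, all but Bub1b. Cdk1, the kinase that starts mitosis, stood at 14.4, 13.3 and 28.5 CPM in KO control cultures, against 2.21, 1.21 and 0.67 CPM in KO vehicle ganglia, a log2 fold change of 3.78 ± 0.43 (adjusted p = 3.18e-05). In WT it stood at 12.5, 12.7 and 11.2 CPM in control cultures, against 1.36, 1.56 and 1.12 CPM in vehicle ganglia. Both genotypes thus had cultures clear of the ganglia, with KO culture 3 above the other 2 KO cultures. Aurkb, the kinase of the chromosomal passenger complex, averaged 7.39 ± 2.38 CPM in KO control cultures against 0.67 ± 0.80 CPM in KO vehicle ganglia, and 6.36 ± 1.25 CPM in WT control cultures against 0.62 ± 0.16 CPM in WT vehicle ganglia (SD, n = 3 each). Its log2 fold change was 3.34 ± 0.26 (adjusted p = 3.71e-06) in WT. Aurka, the related kinase of the spindle poles, changed the least of the called genes, by 0.96 ± 0.26 (adjusted p = 0.00796) in KO and 0.93 ± 0.19 (adjusted p = 0.00155) in WT. Bub1b encodes BUBR1, a spindle checkpoint protein, and was not called. It averaged 7.60 ± 1.23 CPM in KO control cultures against 7.15 ± 1.18 CPM in KO vehicle ganglia, and 6.83 ± 0.13 CPM in WT control cultures against 5.34 ± 2.22 CPM in WT vehicle ganglia. Its log2 fold changes were 0.06 ± 0.21 (adjusted p = 0.796) in KO and 0.36 ± 0.25 (adjusted p = 0.224) in WT. Its partner Bub1 rose, with log2 fold changes of 2.82 ± 0.34 in KO and 2.02 ± 0.22 in WT.

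All 4 genes of chromosome structure and the passenger complex rose in both genotypes. Top2a, the topoisomerase that untangles replicated DNA, stood at 32.5, 35.5 and 72.3 CPM in KO control cultures, against 6.5, 1.21 and 1.34 CPM in KO vehicle ganglia. In WT it stood at 45.9, 47.9 and 39.4 CPM in control cultures, against 1.67, 3.13 and 3.73 CPM in vehicle ganglia. The groups did not overlap although KO vehicle 1 stood well above the other 2 KO vehicle ganglia, and the log2 fold changes were 3.97 ± 0.57 (adjusted p = 1.77e-04) in KO and 3.95 ± 0.22 (adjusted p = 4.35e-07) in WT. Mki67, whose protein Ki-67 coats mitotic chromosomes and is the common histological marker of cycling cells, stood at 19.9, 17.9 and 35.0 CPM in KO control cultures, against 12.3, 2.95 and 4.63 CPM in KO vehicle ganglia. In WT it stood at 30.6, 29.9 and 26.7 CPM in control cultures, against 3.46, 7.04 and 6.94 CPM in vehicle ganglia. Birc5, which encodes survivin of the passenger complex, had log2 fold changes of 1.17 ± 0.40 (adjusted p = 0.0247) in KO and 1.11 ± 0.18 (adjusted p = 4.38e-04) in WT. In KO its groups overlapped, and its adjusted p was 0.0601 without KO vehicle 2, 0.0654 without KO vehicle 3 and 0.132 without KO control culture 3.

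Of the 9 genes of the kinetochore, spindle and midbody, 8 rose in each genotype. Cenpf averaged 7.8 ± 2.33 CPM in KO control cultures against 0.58 ± 0.34 CPM in KO vehicle ganglia, with a log2 fold change of 3.76 ± 0.43 (adjusted p = 3.64e-05). In WT it averaged 9.33 ± 1.56 CPM in control cultures against 0.93 ± 0.37 CPM in vehicle ganglia, with a log2 fold change of 3.32 ± 0.27 (adjusted p = 4.49e-06). Spdl1, which brings dynein to kinetochores, changed less, by 1.43 ± 0.27 (adjusted p = 9.15e-04) in KO and 1.26 ± 0.19 (adjusted p = 3.02e-04) in WT. Kif23, the motor protein of the midbody at which daughter cells part, was the other gene that was not called. It stood at 8.43, 6.41 and 13.8 CPM in KO control cultures, against 8.51, 9.63 and 9.09 CPM in KO vehicle ganglia. In WT it stood at 9.59, 8.23 and 7.00 CPM in control cultures, against 8.17, 9.27 and 8.0 CPM in vehicle ganglia. The ranges overlapped in both genotypes, and the log2 fold changes were 0.05 ± 0.26 (adjusted p = 0.873) in KO and -0.03 ± 0.15 (adjusted p = 0.853) in WT. Prc1, which works with Kif23 at the central spindle, rose by 2.72 ± 0.24 in KO and 2.90 ± 0.18 in WT on the log2 scale. Both genes of the anaphase-promoting complex rose as well: Cdc20 by 3.29 ± 0.39 in KO and 2.78 ± 0.19 in WT, and Ube2c by 2.88 ± 0.57 in KO and 2.09 ± 0.17 in WT.

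**Figure D2:**
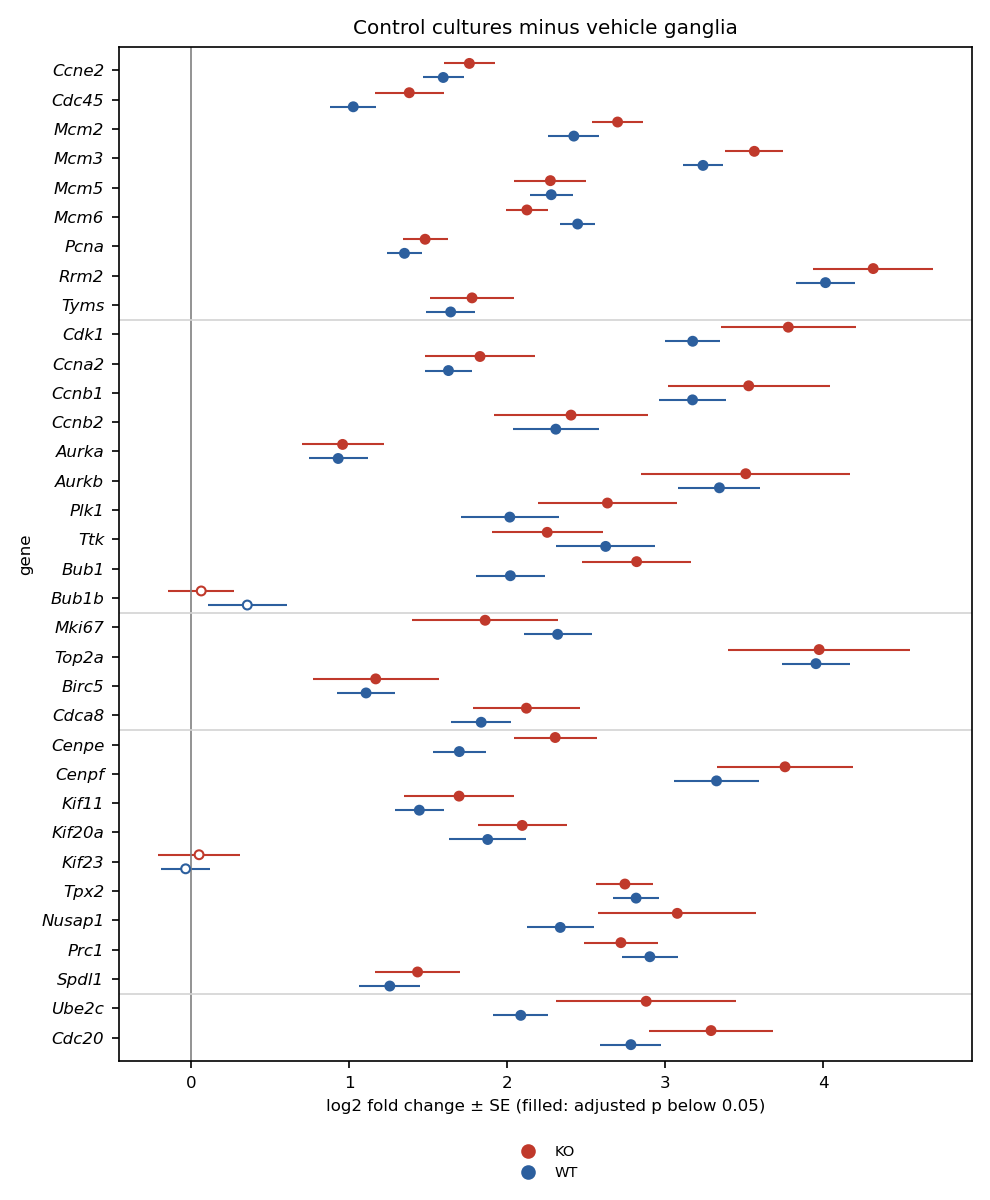
Log2 fold change of each of the 34 genes in control cultures over vehicle ganglia (points, bars SE), KO in red and WT in blue, filled where the adjusted p was below 0.05. In both genotypes 32 points are filled and lie right of 0, and the open points of Bub1b and Kif23 lie near 0.

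The rest of the cell cycle gave counts in the same direction. Of 55 other genes of G2 and mitosis, 49 rose and 2 fell in KO and 49 rose and 3 fell in WT; Gtse1, a microtubule-associated protein of G2, had log2 fold changes of 4.20 ± 0.22 in KO and 3.81 ± 0.19 in WT. Of 32 other S phase genes, 25 rose and 1 fell in KO and 25 rose and 3 fell in WT, led by the replication licensing factor Cdt1 (4.77 ± 0.24 in KO and 4.26 ± 0.16 in WT) and by Uhrf1, which maintains DNA methylation behind the fork (5.58 ± 0.33 and 5.28 ± 0.17). All 5 D cyclins and G1 kinases rose in both, among them Ccnd1 by 2.36 ± 0.18 in KO and 2.92 ± 0.12 in WT. Of 13 cell cycle inhibitors and pocket proteins, 7 rose and 4 fell in KO and 9 rose and 4 fell in WT. Cdkn1a, which encodes the kinase inhibitor p21, rose by 2.96 ± 0.12 in KO and 2.29 ± 0.10 in WT, in the same direction as most genes of division. These lists, like the 34 genes, were chosen with earlier results known.

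Preparation and deposited table cannot be told apart in this comparison, because all ganglia stand in 1 table and the cultures in the other 2. The tables also differ for genes that lie over a gene on the opposite strand. Of the genes with over 50% of their exon length covered by an antisense gene, 14.5% in KO and 12.4% in WT were over 16 times lower in cultures, against 0.687% and 0.691% of genes with no antisense overlap. Ilk, with 89.7% of its exons covered, stood at 0 to 0.362 CPM in the 12 cultures and at 146 to 214 CPM in the 10 ganglia. The S phase gene Fen1, with 84.2% covered, stood at 0 to 0.316 CPM and 11.7 to 16.2 CPM and is 1 of the genes counted above as fallen in both genotypes. Neither the counting tool nor its strand setting is given in the sources used here. Genes with 10 to 50% covered had median log2 ratios of culture over ganglion of -0.40 in KO and -0.39 in WT. With no antisense overlap the medians were 0.08 and 0.06. Gnas, with 22% covered, stood at 15.4 to 21.3 CPM in cultures and at 1589 to 2078 CPM in ganglia. Among the 34 genes, 5 have over 10% of their exons covered by an antisense gene (Ccna2, Ccne2, Kif20a, Prc1 and Ube2c), and all 5 rose in both genotypes. Of the 23 genes whose exons overlap no other gene, 21 rose in each genotype when only such genes were fitted, and the 2 that were not called were Bub1b and Kif23.

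**Figure D3:**
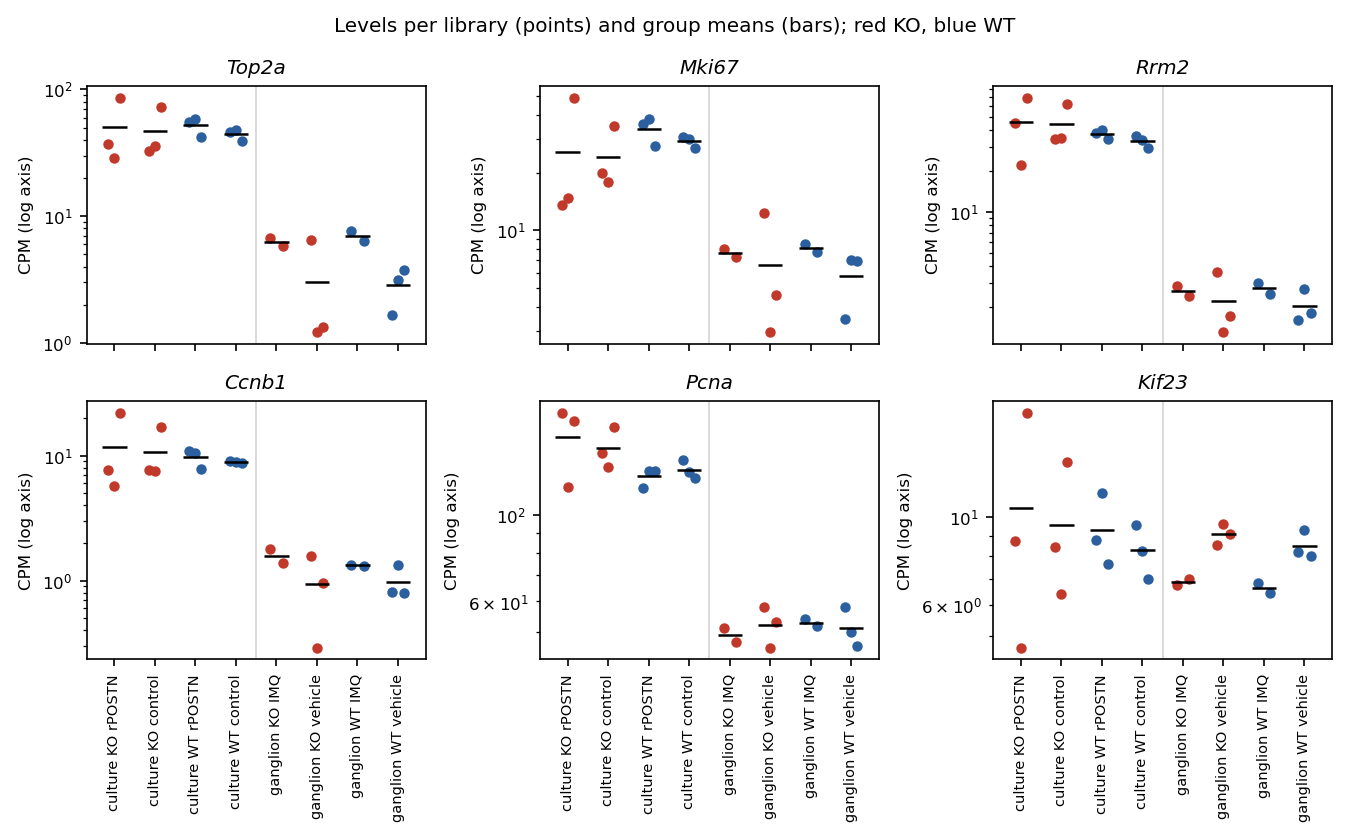
Levels of 6 of the genes in CPM (log axes) in every library, with group means as bars, KO in red and WT in blue, cultures left of the grey line and ganglia right of it. Top2a, Mki67, Rrm2, Ccnb1 and Pcna stand higher in cultures, and Kif23 does not. For Top2a and Mki67, KO culture 3 and KO vehicle ganglion 1 stand above the others of their groups. For Kif23, KO vehicle ganglion 1 is the lowest of its group.

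The next question was whether 5 days of IMQ changed the cell cycle genes of the ganglion. No member was called in KO or in WT ganglia, where 1.1% and 1.3% of all genes were called (0.0174% and 0.18% as lower). Most of the estimates lay above 0: 27 of 34 in KO (median log2 fold change 0.33) and 28 of 34 in WT (median 0.33), against a median of -0.01 over all genes in each. By edgeR, 5 of the 34 had an unadjusted p below 0.05 in KO and 5 in WT, and Kif23, which was lower, was among them in both. Over all genes it was 1442 of 17197 in KO and 1251 in WT. DESeq2 called no member in either. Both IMQ libraries lay above all 3 vehicle libraries for 8 members in KO, against 12.7% of all genes, and for 16 in WT, against 11.5%. They lay below for 1 member in KO, against 11% of all genes, and for 2 in WT, against 9.91%. Leaving out KO vehicle 1, 1 member was called in KO, Top2a. The library WT IMQ 2 is the 1 ganglion without Xist, and without it the WT median was 0.41. With 1 library left out in turn the median ran from 0.15 to 0.47 in KO, lowest without KO IMQ 1, and from 0.26 to 0.41 in WT. The KO and WT comparisons share no libraries but come from 1 fit.

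Top2a stood at 6.69 and 5.77 CPM in KO IMQ ganglia, against 6.5, 1.21 and 1.34 CPM in KO vehicle ganglia. In WT it stood at 7.61 and 6.38 CPM in IMQ ganglia, against 1.67, 3.13 and 3.73 CPM in vehicle ganglia. The WT groups did not overlap, while in KO the vehicle 1 library reached the IMQ level. The log2 fold changes were 1.06 ± 0.62 (adjusted p = 0.636) in KO and 1.29 ± 0.61 (adjusted p = 0.750) in WT, and without KO vehicle 1 that of KO was 2.29 ± 0.34 (adjusted p = 0.0138). With all libraries and replicate number as a block, that of KO was 1.09 ± 0.63 (edgeR, adjusted p = 0.361). The fit without KO vehicle 1 kept KO IMQ 1, the highest of its group for 30 of the 34 members, against 48.2% of all genes. KO vehicle 1 was also the highest of its group for 26 of the 34 members, against 39.5% of all genes, and held 12.3 CPM of Mki67 against 2.95 and 4.63 CPM in the other 2. Its neutrophil markers (6 genes) summed to 325 CPM, against 28.2 and 53.7 CPM, and its erythroid markers (6 genes) to 490 CPM, against 43.1 and 87.0 CPM. The part of such cells in its cell cycle values was not tested. Mcm3 had the smallest p in KO: it stood at 5.71 and 4.38 CPM in IMQ ganglia and at 3.34, 2.32 and 3.07 CPM in vehicle ganglia, without overlap, a log2 fold change of 0.79 ± 0.22 (adjusted p = 0.250). Prc1 had the smallest p in WT, at 6.70 and 5.75 CPM in IMQ ganglia and 3.34, 4.47 and 2.83 CPM in vehicle ganglia, with 0.81 ± 0.24 (adjusted p = 0.251). Mcm6 in WT had a log2 fold change of 0.37 ± 0.13 (adjusted p = 0.437), and Cenpf in KO had 1.29 ± 0.50 (adjusted p = 0.519) from levels of 1.54 and 1.27 CPM in IMQ ganglia against 0.82, 0.193 and 0.725 CPM in vehicle ganglia.

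Kif23 went the other way from most members in both genotypes. It stood at 6.76 and 6.98 CPM in KO IMQ ganglia, against 8.51, 9.63 and 9.09 CPM in KO vehicle ganglia, and at 6.81 and 6.44 CPM in WT IMQ ganglia, against 8.17, 9.27 and 8.0 CPM in WT vehicle ganglia. All 4 IMQ libraries were thus below all 6 vehicle libraries, with log2 fold changes of -0.42 ± 0.13 (adjusted p = 0.365) in KO and -0.36 ± 0.13 (adjusted p = 0.489) in WT, neither of which passed the test. Bub1b, the other gene at a like level in culture and ganglion, had estimates of -0.43 ± 0.32 in KO and -0.34 ± 0.33 in WT, with overlapping libraries. They were not the only members below 0, which were 7 of 34 in KO and 6 in WT. Birc5 was at -0.60 ± 0.26 in KO and -0.27 ± 0.26 in WT with replicate number as a block. Without the block and without KO vehicle 1 it was at -0.07 ± 0.33 in KO.

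Outside the 34 genes, 1 cell cycle gene was called in the fit of all 10 ganglia. Hmmr, whose protein helps to organise the spindle, stood at 3.00 and 2.69 CPM in WT IMQ ganglia, against 1.05, 1.23 and 1.12 CPM in WT vehicle ganglia, and rose by 1.32 ± 0.21 on the log2 scale (adjusted p = 0.0126). In KO it stood at 2.03 and 1.84 CPM in IMQ ganglia, against 1.14, 1.02 and 1.17 CPM in vehicle ganglia, with a log2 fold change of 0.79 ± 0.21 (adjusted p = 0.215). A difference of the effects between genotypes was not called (-0.53 ± 0.30, KO minus WT, adjusted p = 0.999), and with 1 library left out in turn the WT adjusted p ran from 0.0486 to 0.143, below 0.05 only without WT vehicle 1. Of the other 55 genes of G2 and mitosis 53 were tested, and 40 lay above 0 in KO (median 0.37) and 42 in WT (median 0.24). Of the 31 other S phase genes tested, 17 lay above 0 in KO (median 0.07) and 19 in WT (median 0.08), and the 5 D cyclins and G1 kinases had medians of 0.02 in KO and 0.06 in WT. None of these was called apart from Hmmr. Macrophage markers (10 genes) summed to 421 and 480 CPM in KO IMQ ganglia against 126 to 150 CPM in KO vehicle ganglia, and to 498 and 552 CPM in WT IMQ ganglia against 118 to 148 CPM in WT vehicle ganglia, with 8 of 10 called higher in each genotype. Sums of other lists differed as well. Myelinating Schwann cell markers (10 genes) summed to 5501 and 5996 CPM in KO IMQ ganglia against 6778 to 8053 CPM in KO vehicle ganglia, and to 5448 and 7817 CPM in WT IMQ ganglia against 10347 to 15861 CPM in WT vehicle ganglia. Of these 0 were called in KO and 1 as lower in WT. Erythroid markers (6 genes) summed to 22.2 and 28.8 CPM in KO IMQ ganglia against 43.1 to 490 CPM in KO vehicle ganglia, and to 33.01 and 47.9 CPM in WT IMQ ganglia against 112 to 151 CPM in WT vehicle ganglia, with none called. Of the T, B and plasma cell markers 7 were tested, with 2 called higher in WT and 0 in KO. Estimates lay above 0 for 4 and below for 3 in each genotype. The part of any of these cells in the cell cycle values was not tested.

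**Figure D4:**
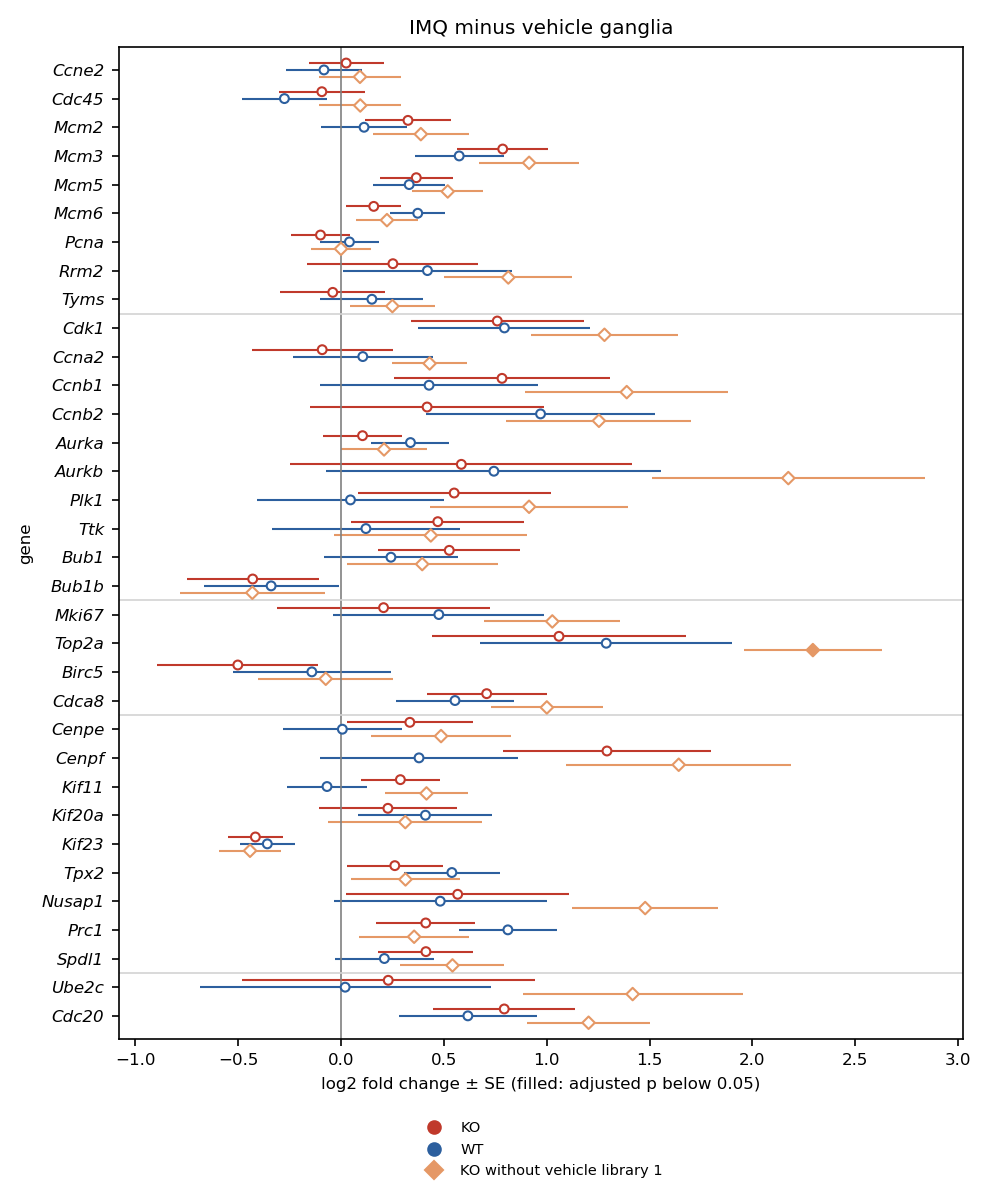
Log2 fold change of each of the 34 genes in IMQ over vehicle ganglia (points, bars SE), KO in red, WT in blue and KO without the vehicle 1 library in orange, filled where the adjusted p was below 0.05. Most points lie right of 0. With all libraries 7 of the 34 lie left of it in KO and 6 in WT, Kif23 and Bub1b among them in both. In all, 1 point is filled, Top2a in KO without vehicle 1.

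The third question was whether loss of Postn went with other levels of the cell cycle genes. None of the 34 was called in KO against WT vehicle ganglia, where 0.0116% of all genes were called, or in KO against WT IMQ ganglia, where 0.00581% were. An unadjusted p below 0.05 was reached by 1 member in vehicle ganglia and by 0 in IMQ ganglia. Over all genes it was 530 of 17197 and 318 of 17197. DESeq2 called no member in either. The member with p below 0.05 was Cenpe, a kinetochore motor, at 1.83, 1.26 and 1.56 CPM in KO vehicle ganglia and 2.72, 2.29 and 2.24 CPM in WT vehicle ganglia. Those groups did not overlap, as for 1 of the 34 members and 4.01% of all genes with KO below WT, while KO was above WT for 0 members, against 2.9% of all genes. Its log2 fold change was -0.64 ± 0.27 (adjusted p = 1.00). The median over the 34 genes was 0.02 in vehicle ganglia and -0.36 without KO vehicle 1. Bub1 (-0.56 ± 0.31) and Mcm3 (-0.37 ± 0.20) had the next smallest p, with overlapping groups. Without KO vehicle 1 Top2a was at -1.18 ± 0.33 (adjusted p = 0.999). In IMQ ganglia the median was -0.07, and Spdl1 had the smallest p, at 2.82 and 2.16 CPM in KO against 1.72 and 1.94 CPM in WT (0.44 ± 0.26, adjusted p = 0.997), followed by the checkpoint kinase Ttk (0.68 ± 0.47) and by Kif11, a spindle motor (0.25 ± 0.21). Both KO libraries were above both WT libraries for 5 members, against 16.3% of all genes, and below for 4, against 16.9%. No member was called for a difference of the IMQ effects between the genotypes, where no gene at all was called. No member reached an unadjusted p below 0.05, against 364 of 17197 genes, and DESeq2 called none. The median difference over the 34 genes was -0.00, and ran from -0.12 to 0.32 with 1 library left out in turn, highest without KO vehicle 1. Of the single genes, the smallest p was that of Kif11 at 0.36 ± 0.27, before Cenpf at 0.91 ± 0.70 and Prc1 at -0.40 ± 0.34 (adjusted p = 0.999 each).

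In culture KO and WT stood in separate tables, and only KO cultures mixed both sexes. Genotype, table and sex make-up therefore cannot be told apart. No member was called in KO against WT control cultures, where 1.61% of all genes were called. No member had an unadjusted p below 0.05, against 2793 of 17519 genes, and DESeq2 called none. The median log2 fold change of the 34 genes was 0.18, and -0.10 without KO control culture 3. Cdk1, at 14.4, 13.3 and 28.5 CPM in KO and 12.5, 12.7 and 11.2 CPM in WT, had 0.63 ± 0.41 (adjusted p = 0.491). Spdl1 was at 4.41, 4.61 and 6.29 CPM in KO and 3.32, 4.01 and 3.92 CPM in WT (0.44 ± 0.27, adjusted p = 0.457). For Cdk1 and Spdl1 the lowest KO library exceeded the highest WT library, as for 3 of the 34 members and 14.3% of all genes, and the reverse held for 0 members, against 14.6%. Ube2c had 0.70 ± 0.42 (adjusted p = 0.459) with overlapping libraries. Of the other cell cycle genes, Hmgb2, a chromatin protein abundant in dividing cells, was at 81.1, 85.2 and 96.1 CPM in KO and 55.7, 62.3 and 49.6 CPM in WT (0.65 ± 0.11, adjusted p = 0.00967). Cdc7, the kinase that fires replication origins, was at 18.7, 17.3 and 19.97 CPM in KO and 12.2, 11.3 and 11.8 CPM in WT (0.67 ± 0.13, adjusted p = 0.0200). With 1 library left out in turn the adjusted p of Hmgb2 ran from 0.0192 to 0.0756, past 0.05 without WT control 1 or WT control 3, and that of Cdc7 from 0.0671 to 0.122.

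The last question was whether rPOSTN changed the cell cycle genes of the cultures, all kept for 72 h. No member was called in KO or in WT cultures, and no gene of any kind was called, that is 0% of those tested in each. In KO 0 and in WT 5 of the 34 had an unadjusted p below 0.05. Over all genes it was 155 of 16756 in KO and 661 of 16639 in WT. DESeq2 called no member. Estimates lay above 0 for 28 of 34 in KO (median 0.09) and for 30 of 34 in WT (median 0.18), against medians over all genes of 0.01 in KO and -0.00 in WT. Every rPOSTN library was above every control for 0 members in KO, against 2.49% of all genes, and for 5 members in WT, against 5.1%. Every one was below every control for 0 members in both, against 2.86% of all genes in KO and 4.68% in WT. With replicate number as a block the medians were 0.03 in KO and 0.18 in WT and again no member was called. The smallest adjusted p with the block were in WT, for Top2a (0.22 ± 0.05, adjusted p = 0.228) and Spdl1 (0.58 ± 0.16, adjusted p = 0.310).

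Spdl1 had the smallest p in WT. It stood at 6.48, 5.79 and 4.84 CPM in WT rPOSTN cultures and 3.32, 4.01 and 3.92 CPM in WT controls, with every rPOSTN library higher, a log2 fold change of 0.59 ± 0.16 and an unadjusted p of 0.00169 (edgeR, adjusted p = 0.999). In KO it stood at 5.54, 3.85 and 9.10 CPM in rPOSTN cultures and 4.41, 4.61 and 6.29 CPM in controls, overlapping (0.27 ± 0.32, adjusted p = 1.00). Ccnb2, a mitotic B cyclin, stood at 6.48, 7.24 and 6.07 CPM in WT rPOSTN cultures and 5.27, 4.17 and 4.83 CPM in WT controls (0.47 ± 0.14, adjusted p = 0.999). Nusap1, which bundles spindle microtubules, had 0.27 ± 0.12 (adjusted p = 0.999) in WT with overlapping libraries. In KO the smallest p were those of Bub1b (0.43 ± 0.34), Cenpe (0.30 ± 0.31) and Spdl1, each with an adjusted p of 1.00. The difference of the rPOSTN effects, KO minus WT, was called for no member and no gene. No member had an unadjusted p below 0.05, against 342 of 17519 genes, and DESeq2 called none. The median over the 34 genes was -0.03. Without KO rPOSTN 3 that median was -0.53, and without KO rPOSTN 2 or KO control 3 it was 0.23. Ube2c had the smallest p for that difference, with -0.60 ± 0.60, before Spdl1 at -0.33 ± 0.38 and Pcna at 0.15 ± 0.19 (adjusted p = 1.00 each).

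Libraries of 1 group varied more in these genes than over all genes, in cultures and in ganglia, and most in KO cultures. The median coefficient of variation of the 34 genes was 51.6% in KO rPOSTN and 32.1% in KO control cultures, against 16.1% and 9.7% over all genes with a mean of at least 1 CPM in the group. In WT it was 12% with rPOSTN and 9.8% in controls, against 6.3% and 6.2%. In KO ganglia it was 13.4% with IMQ and 21% with vehicle, against 9.6% and 15.5%. In WT ganglia it was 8.4% with IMQ and 16.5% with vehicle, against 6.8% and 13.6%. The ganglion values cover only members with a mean of at least 1 CPM in the group. Genes were not matched for level, and counting error adds more at low counts. KO culture 3 was the highest of its group for 32 of 34 members with rPOSTN and for 33 of 34 as control, against 30.3% and 34.2% of all genes. Top2a was at 86.0 CPM in KO rPOSTN 3 and 72.3 CPM in KO control 3, and at 28.8 to 37.2 CPM in the other 4 KO cultures. Mki67 was at 49.0 and 35.0 CPM in culture 3 and at 13.5 to 19.9 CPM in the others. Fibroblast markers summed to 1980 and 1752 CPM in KO culture 3, with rPOSTN and without, against 1155 to 1338 CPM in the other 4 KO cultures, and neuron markers were lowest there, at 6440 and 6616 CPM against 6943 to 8406 CPM. Other lists were also highest in KO culture 3: satellite glia and non-myelinating Schwann cells at 3649 and 3541 CPM against 2861 to 3196 CPM, myelinating Schwann cells at 2479 and 2425 CPM against 1460 to 2185 CPM, and pericytes and smooth muscle (7 genes) at 297 and 272 CPM against 217 to 235 CPM. Postn was highest there as well, as given above, and so were summed Y-linked genes, at 95.8 and 94.5 CPM against 44.1 to 49.1 CPM. The part of these cell types, and of sex, in the cell cycle values was not tested. In WT the lowest library was culture 3 in both groups, for 27 of 34 members with rPOSTN and 25 as control, against 39% and 36% of all genes. WT culture 3 was also the 1 WT culture with Xist.

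Set against the control of the same number, rPOSTN cultures did not move the 34 genes 1 way in KO. In KO the ratio was above 1 for 26 of 34 genes in pair 1 and 31 in pair 3, but for 2 in pair 2, with median log2 ratios of 0.16, 0.31 and -0.33. In WT it was above 1 for 24, 31 and 26 of 34, with medians of 0.09, 0.25 and 0.10. Over all genes between 48.1% and 52.7% had a ratio above 1 in the 6 pairs. Leaving out KO rPOSTN 3 turned the KO median to -0.34 while leaving out KO control 3 gave 0.44.

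**Figure D5:**
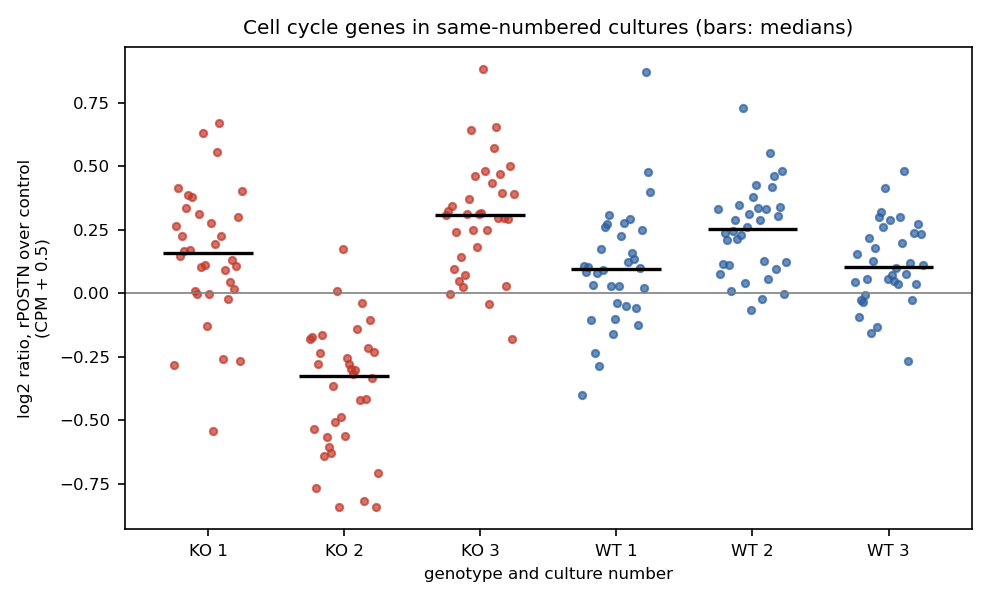
Log2 ratio of rPOSTN over control (CPM + 0.5) for each of the 34 genes (points) in same-numbered cultures, with the median as a bar, KO in red and WT in blue. The medians lie between 0.09 and 0.31 in 5 pairs and at -0.33 in KO pair 2.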

How the data were processed

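RNA of 22 mouse libraries was poly-A selected, made strand-specific with dUTP and sequenced in pairs, per the labels' protocols. The authors deposited 3 tables of raw counts per Ensembl gene (ganglia, WT cultures, KO cultures). Per the submitters' processing notes, TopHat2, HISAT2 2.1.0 and Bowtie2 2.2.3 were used with GRCm39, in roles not stated. No source used here gives the counting tool, strand setting or annotation. Symbols, exon lengths and overlaps came from GENCODE M21, which rests on another build, so no gene coordinates are printed beside promoters.

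Counts were tested with edgeR 4.0.16 (quasi-likelihood, robust, filterByExpr, TMM, two-sided), Benjamini-Hochberg adjusted over all genes tested, in 11 comparisons, called at an adjusted p below 0.05. The 4 ganglion groups shared 1 fit, as did the 12 cultures for KO against WT and for the difference of effects, and the other comparisons used their 6 libraries. Standard errors (SE) were derived from each log2 fold change and its F statistic. CPM uses TMM-scaled totals over all 22 libraries. DESeq2 1.42.0, other scalings, no filter, other sets of libraries, a replicate block and leaving out each library were alternatives. The fits were tested on simulated data. R 4.3.3 and Python 3.11.15 were used.

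The members and lists were chosen with earlier results of these data known. With a fold and p, all called members are named up to 8, otherwise the 4 highest and 4 lowest called, otherwise the 3 with the smallest p, and up to 4 called genes of each other list. Members named beside these were chosen after their values were seen, and not all genes of the other lists that the rule names are reported. Replicates differed by 2.59 to 77.1 in chi-square per degree of freedom, where 1 would be counting error alone. Same-numbered libraries were taken to pair the samples where all 3 pairs had residuals correlated above 0.1 across genes: KO cultures (0.382, 0.692, 0.607), WT cultures (0.29, 0.305, 0.557) and KO against WT vehicle ganglia (0.892, 0.849, 0.168). Unless the block is named, fold changes, SE and p for these come from fits without it.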

Additional observations from a re-analysis of the deposited data

How the results depend on the processing

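The count of 32 members higher in culture, and the counts of 0 in the other comparisons, were the same with DESeq2 size factors, library totals, DESeq2, no low-count filter, other sets of libraries and the replicate block (32 and 32 members in culture against ganglion, 0 in the other 9 comparisons). The block therefore changed no call. In ganglia IMQ and vehicle share only 2 numbers, with residual correlations of 0.752 and 0.755 in KO and 0.242 and 0.205 in WT. Numbers were not taken to pair cultures with ganglia or KO with WT cultures. With 1 library left out in turn the counts ran from 30 to 32 in KO and 32 to 33 in WT for culture against ganglion, from 0 to 1 for IMQ in KO, and were 0 elsewhere. The 1 was Top2a without KO vehicle 1. With genes free of exon overlap alone, chosen after seeing the data, 21 of 23 members were higher in KO and 21 of 23 in WT, since fewer members enter. Without KO cultures 3 of both groups, also chosen after seeing the data, 0 members were called for rPOSTN in KO. For rPOSTN in KO, leaving out 1 library gave log2 fold changes from -0.11 to 0.68 for Bub1b, -0.090 to 0.57 for Cenpe and -0.12 to 0.52 for Spdl1, negative without KO rPOSTN 3 and never past the test. Library totals moved the median of all genes in culture against ganglion to 0.24 in KO and 0.12 in WT, with member medians of 2.53 and 2.31. In ganglia 3 of the 34 members averaged under 1 CPM, where counting error is largest.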
